A study of Rattus norvegicus with 2 samples.

Results

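The genes described here act when a cell divides its chromosomes: 50 named genes of mitotic entry, the spindle, the kinetochore, anaphase, cytokinesis and chromosome structure. They were chosen by name, with earlier results of these data known. Of these genes 44 had a probe set with that single gene symbol, among 14218 genes with such a probe set. Expression was measured in astrocytes, glial cells that support neurons, cultured from hippocampus of Sprague-Dawley rat embryos at embryonic day 18, with 1 array for each of 2 groups. The control astrocytes carried a vector expressing only a red fluorescent protein behind an internal ribosome entry site (IRES2-RFP). The 5ppase astrocytes expressed 5ppase from a vector with the same fluorescent protein (5ppase-IRES2-RFP in the description, 55ppase-IRES-RFP in the transfection label), and both groups are given as genotype normal. The design contrasts active calcium signalling (control) with its absence (5ppase), so the question for these genes is whether the division programme differs between the cultures. The name 5ppase commonly stands for an inositol phosphate 5-phosphatase, which removes the messenger that releases calcium from internal stores; which phosphatase gene was used, how many cells carried the vector and how many cultures were pooled is not given in these sources.

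Division is driven by cyclin B bound to the kinase Cdk1, which is switched on at the end of G2 and switched off in anaphase when a ubiquitin ligase, the APC/C, marks the cyclin for destruction. Most messages of this programme are made only in G2 and mitosis, through promoters with CCAAT boxes, bound by the factor NF-Y, and a cell cycle homology region, bound by the DREAM complex in resting cells and by the MuvB, B-Myb and Foxm1 activators in dividing cells. Their level in a culture is therefore widely used as a readout of how many cells divide. Astrocytes of the adult brain seldom divide, whereas astrocytes in young cultures do.

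Each value is a MAS5 signal, a linear summary of a probe set's brightness in arbitrary units, and each gene is represented by its brightest probe set. Signals on the control array ran from 0.1 to 43892 with a median of 107.1, and on the 5ppase array from 0.2 to 49734.3 with a median of 109.4. A signal floor of 62.0, the 40th percentile of both arrays, stands for the level under which ratios carry little information; 10255 genes whose mean signal exceeded it are called measured, and their ratios were taken after raising lower signals to the floor. Ratios are log2 of 5ppase over control throughout. With no replicates, every difference here is one between single arrays, and no p-value can be attached to it. The only internal repeat is a second probe set of the same gene. There were 2714 genes with 2 probe sets above the floor on both arrays. From the differences within these pairs, the SD of the log2 ratio of a single probe set was 0.30. It was 0.47 over the 189 of these genes with both probe sets in the dim range of most mitosis genes. The difference between 2 probe sets scatters more widely than that.

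Mitosis genes gave higher signals in the 5ppase culture. Of the 44 genes with a probe set, 41 had the higher raw signal in 5ppase, against 49.7% of all genes. Of the 39 that were measured, 37 had a positive ratio (48.6% of all measured genes), 24 exceeded 1.5-fold (7.48% of all measured genes) and 15 exceeded 2-fold (2.14%), while 0 were 1.5-fold lower (6.87%) or 2-fold lower (1.9%). Their median log2 ratio was 0.80, beside -0.012 for all measured genes. A gene that is dim in control passes a filter on the mean only if it is bright in 5ppase, so the 7 measured genes at or under the floor in control (Ccna2, Foxm1, Birc5, Kif2c, Kif11, Kif20b and Mki67) had to differ. Of the 32 genes above the floor on both arrays, 30 had a positive ratio (48.1% of all such genes), 17 were higher by 1.5-fold or more (6.16%) and 10 by 2-fold or more (1.51%), with a median of 0.71 beside -0.015. None of the 32 was lower by 1.5-fold (6.17% of all such genes) or 2-fold (1.54%). In bulk RNA, more dividing cells and more message per dividing cell cannot be told apart.

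Dim probe sets scatter more, and most of these genes are dim. Of the 39 measured genes 31 had a mean signal under 208.4, the 60th percentile of both arrays. Of these, 30 had a positive ratio (51% of all measured genes in that range), 18 were at least 1.5-fold higher (17.7%) and 12 reached 2-fold (5.26%), with 0 lower by 1.5-fold (14.1%) or 2-fold (4.34%). Of the 8 genes over that signal, 7 had a positive ratio (48% of all measured genes in that range), 6 were at least 1.5-fold higher (4.55%) and 3 reached 2-fold (Cdk1, Cks2 and Spc24; 1.24%), with 0 lower by 1.5-fold (4.8%) or 2-fold (1.2%). Their median ratio was 0.87. The dim ones had a median of 0.80, but they include the 7 genes at or under the floor in control. The filter fixed the direction of those 7, so the dim counts and median rest partly on it. The 2 medians are therefore not compared.

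**Figure D1:**
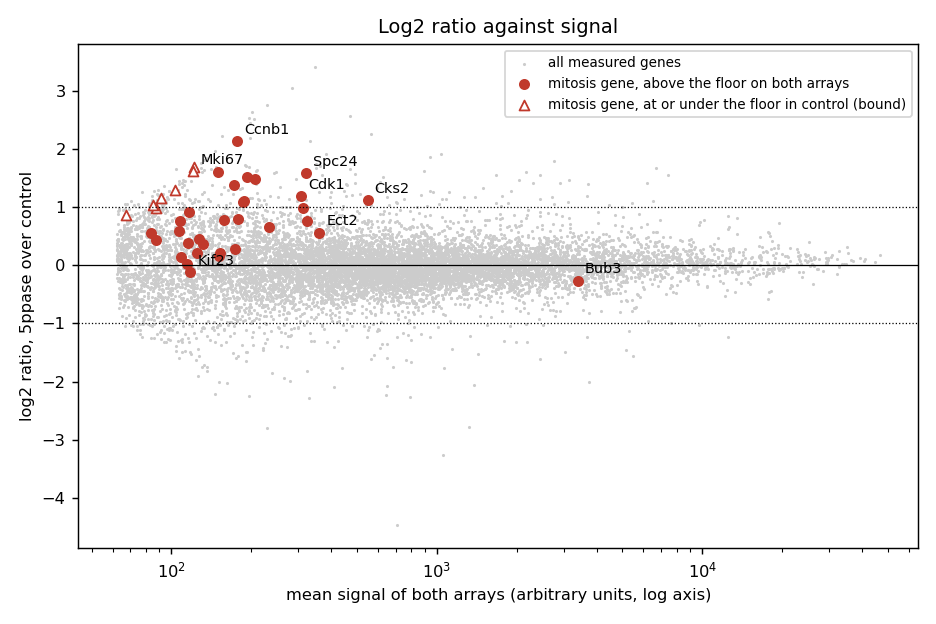
Log2 ratio of 5ppase over control (vertical axis) against the mean signal of both arrays (horizontal log axis) for all 10255 measured genes (grey) and the 39 measured mitosis genes (red); open triangles mark the 7 genes at or under the floor in control, whose ratio is a bound, and dotted lines mark 2-fold. The mitosis genes lie almost all above 0, at low signals where the grey cloud is wide; Bub3 is the one member far to the right and lies just under 0.

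The promoters of these genes are shown first because the division programme is known to be switched through them. Windows of 300 bases (250 before to 50 after the annotated start) from RefSeq, rat build GRCr8, were matched by symbol for 43 of the 50 genes. Each window was searched on both strands for the CCAAT box (CCAAT) and for the cell cycle homology region, spelled TTTGAA in most genes and TTCGAA in some. A CCAAT box was present in 35 of the 43 windows (81.4%, beside 37.5% of all 33469 windows), and 25 held 2 or more (58.1% beside 11.2%). A homology region was present in 35 (81.4% beside 19.7%), 33 of them as TTTGAA (76.7% beside 18.3%). Both motifs were present in 30 (69.8% beside 7.95%; among measured genes with a window the share was 5.84%), and 3 genes (Aurka, Bub1 and Kif2c) held neither. Of the 45 homology region matches 34 began between positions -80 and 40, with a median at -36, whereas the 81 CCAAT matches had a median position of -101. A match is a description of the letters and no measurement of binding.

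The stretches that follow give 5 genes with higher signals in 5ppase and both motifs, 1 such gene (Ccnb1) whose window holds CCAAT boxes and no homology region, 2 genes whose ratios were small (Pttg1 and Bub3) although both motifs are present, and Mki67, whose boxes lie further upstream. Each runs 5′ to 3′ along the gene's strand, ends at the base before the annotated start except for Mki67, and has CCAAT boxes and homology regions of either strand in capitals (on the opposite strand they read ATTGG and TTCAAA). In Mki67 a homology region and a CCAAT box overlap in 1 run of capitals.
Ccnb1, chr2:33655226-33655335, minus strand, log2 ratio 2.13: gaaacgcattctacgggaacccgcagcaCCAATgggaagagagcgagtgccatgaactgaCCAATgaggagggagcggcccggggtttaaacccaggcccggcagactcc
Cdk1, chr20:19265183-19265292, plus strand, log2 ratio 1.18: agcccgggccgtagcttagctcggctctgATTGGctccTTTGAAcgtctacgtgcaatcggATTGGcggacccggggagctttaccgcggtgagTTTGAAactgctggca
Cks2, chr17:13727520-13727629, minus strand, log2 ratio 1.12: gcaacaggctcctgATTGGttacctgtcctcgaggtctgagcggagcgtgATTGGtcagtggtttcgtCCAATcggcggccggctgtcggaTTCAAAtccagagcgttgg
Cdc20, chr5:137255800-137255909, minus strand, log2 ratio 1.10: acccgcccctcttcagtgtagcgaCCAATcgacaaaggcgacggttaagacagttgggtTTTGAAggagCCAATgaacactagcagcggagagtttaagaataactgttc
Prc1, chr1:143659371-143659480, plus strand, log2 ratio 0.98: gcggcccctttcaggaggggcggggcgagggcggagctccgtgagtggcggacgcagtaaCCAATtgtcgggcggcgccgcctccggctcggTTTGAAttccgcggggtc
Spc25, chr3:74396719-74396828, minus strand, log2 ratio 1.51: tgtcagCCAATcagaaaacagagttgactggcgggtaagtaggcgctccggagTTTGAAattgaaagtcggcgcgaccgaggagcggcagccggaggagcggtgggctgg
Mki67, chr1:199952673-199952793, minus strand, log2 ratio at least 1.61: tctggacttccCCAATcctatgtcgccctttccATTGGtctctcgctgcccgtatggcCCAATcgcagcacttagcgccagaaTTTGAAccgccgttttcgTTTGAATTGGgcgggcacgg
Pttg1, chr10:28406327-28406436, minus strand, log2 ratio 0.28: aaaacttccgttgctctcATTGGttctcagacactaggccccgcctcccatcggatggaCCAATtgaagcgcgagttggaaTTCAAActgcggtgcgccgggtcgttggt
Bub3, chr1:195760422-195760531, plus strand, log2 ratio -0.27: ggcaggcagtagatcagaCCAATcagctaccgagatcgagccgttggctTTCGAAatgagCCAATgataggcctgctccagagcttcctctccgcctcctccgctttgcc

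Too few measured members lacked a motif to show whether the motifs sort the members by their ratio. The 24 measured members with both motifs had a median ratio of 0.76, with 8 at least 2-fold higher (2.14% of all measured genes). The 4 with a CCAAT box alone (Ccnb1, Spc24, Kif20a and Kif11) were all at least 2-fold higher. The 2 with a homology region alone had a median of 0.87. The 3 with neither motif had a median of 0.43, with 0 at least 2-fold higher. Kif23, Bub3, Cdc25b and Hmmr held both motifs and had first-probe-set ratios between -0.27 and 0.13.

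**Figure D2:**
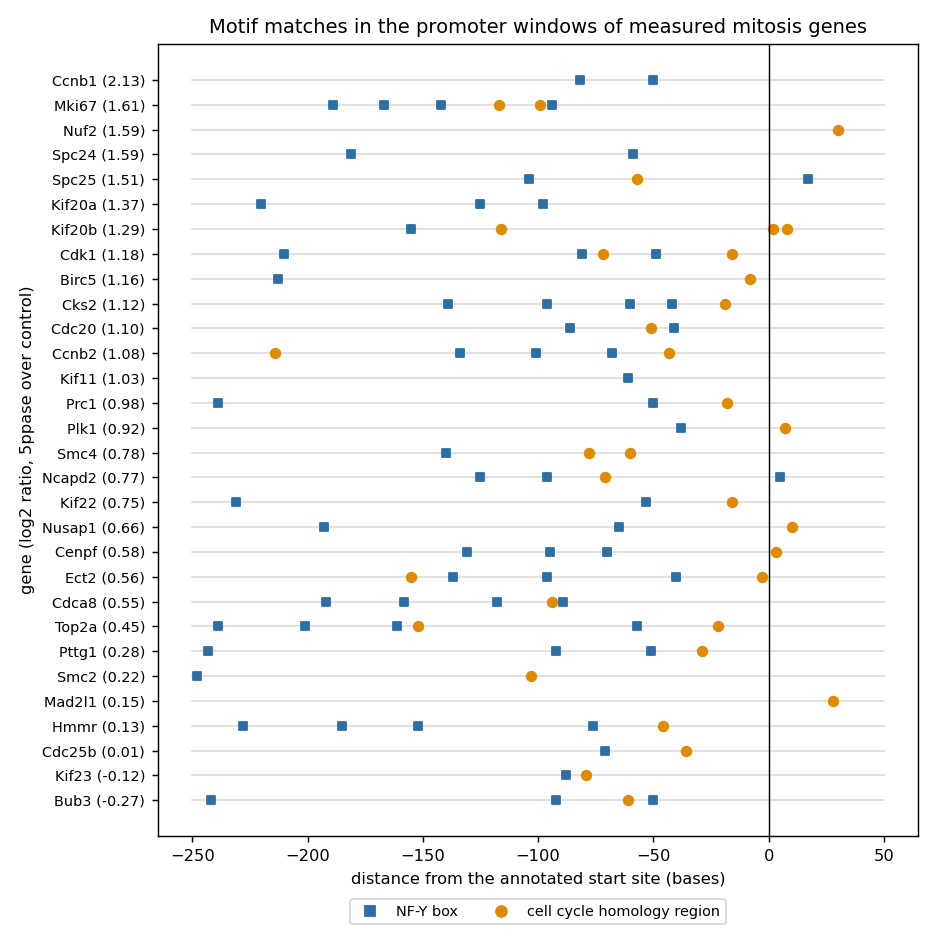
Positions of CCAAT boxes (blue squares, labelled NF-Y box) and cell cycle homology regions (orange circles) on either strand in the promoter windows of the 30 measured mitosis genes with at least 1 match; the horizontal axis is the distance from the annotated start in bases, and genes are ordered by their log2 ratio, given in parentheses. Orange circles gather near the start and blue squares upstream of it, from the top of the order to the bottom.

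Mitotic entry. The genes that start mitosis were higher in 5ppase in 7 of 8 cases by at least 1.5-fold (7.48% of all measured genes), with a median of 1.10. Of the 6 above the floor on both arrays 5 were (6.16% of all such genes). Ccnb1, cyclin B1, which activates Cdk1, gave 65.9 in control and 288.5 in 5ppase, 4.38-fold higher (log2 ratio 2.13). Its second probe set gave 95.6 and 235.2 (1.30), so both probe sets put the cyclin over 2-fold higher, with different sizes. Its partner Ccnb2, cyclin B2, gave 119.2 and 252.1 (1.08). Cdk1, the kinase itself, gave 188.4 and 428.2 (1.18), and Cks2, the small subunit that docks Cdk1 on its substrates, gave 345.9 and 749.8 (1.12). Cyclin, kinase and docking subunit were thus all between 2-fold and 4.38-fold higher in the 5ppase culture. Ccna2, the S and G2 phase cyclin A2, lay under the floor in control (43.3) and at 199.5 in 5ppase, at least 3.22-fold higher.

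The activators of Cdk1 differed from each other. Plk1, the kinase that promotes entry and later spindle assembly, gave 80.4 and 152.3 (0.92). Foxm1, the transcription factor that drives many genes listed here, gave 53.0 and 121.9, at least 1.97-fold higher, with a second probe set too dim to read (4.2 and 39.3). Cdc25b, the phosphatase that starts Cdk1 activation in G2, gave 114.2 and 115.2 (0.013), a difference whose sign turned under common median scaling and quantile normalization (-0.018 for both). It was the only measured entry gene under 1.5-fold. Cdc25c had no probe set with a single symbol.

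Aurora kinases and the chromosomal passenger complex. These genes were higher by less, with a median of 0.43 over 5 measured genes. None of the 4 above the floor on both arrays was 1.5-fold higher (6.16% of all such genes), too few genes for that count to set the role apart. Birc5, under the floor in control, was. Aurkb, the kinase that corrects wrong attachments of chromosomes, gave 100.9 and 130.8 (0.37), and its scaffold Incenp gave 114.9 and 147.0 (0.36). Cdca8 (borealin) gave 67.6 and 99.2 (0.55), and Birc5 (survivin), the subunit that brings the complex to centromeres, gave 44.4 and 138.7, at least 2.24-fold higher. Aurka, the centrosomal Aurora kinase, gave 74.6 and 100.7 (0.43). Except for Birc5 these ratios are no larger than 0.55, about the size of the scatter between dim probe sets (0.47). The further probe sets of Incenp did not repeat its sign: 71.6 and 57.2 (-0.21, with 5ppase under the floor) at the second and 50.5 and 37.0, under the floor, at the third. Tpx2, which activates Aurka, had no probe set with a single symbol.

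Spindle checkpoint. The genes that delay anaphase until all chromosomes are attached had the smallest median of the roles, 0.15, from 3 measured members of 5 listed. Of these 3, 0 were 1.5-fold apart. Few measured genes were (7.48% higher and 6.87% lower), so that count does not set the role apart. Bub1 gave 115.7 and 133.6 (0.21), and Mad2l1, the inhibitor of Cdc20, gave 143.3 and 159.0 (0.15), with -0.12 (95.0 and 87.6) and 0.49 (59.6 and 87.1) at its other probe sets. Bub3, the partner that brings Bub1 to kinetochores, gave 3708.2 and 3082.1 (-0.27), and its second probe set gave 152.0 and 161.9 (0.091). None of these first probe sets had a ratio beyond the scatter between dim probe sets. Ttk, the kinase that recruits them, gave 3.3 and 58.9, and Bub1b gave 6.7 and 11.4; both genes were under the floor on both arrays and have no ratio.

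Kinetochore. The subunits of the Ndc80 complex, which clamps chromosomes to microtubules, had the largest role median, 1.55 with Cenpf. Nuf2 gave 74.5 and 224.8 (3.02-fold, log2 ratio 1.59), Spc24 gave 160.0 and 480.8 (1.59) and Spc25 gave 99.7 and 284.4 (2.85-fold, 1.51). The ratios of these 3 subunits of 1 complex lie closer together than the probe set SD. The fourth subunit, Ndc80, had no probe set with a single symbol. Cenpf, a large kinetochore protein of G2 and mitosis, gave 85.5 and 127.8 (0.58). Cenpe, the kinesin that moves chromosomes to the spindle equator, gave 5.2 and 103.9, and its mean was under the floor. Cenpa, the centromeric histone, ran the other way at 44.2 and 5.3, both under the floor, so no direction is read from it.

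Spindle motors and microtubule binders. The 6 measured genes had a median of 0.81, but Kif2c, Kif11 and Kif20b were under the floor in control, so their direction was fixed by the filter. Of the 3 above the floor on both arrays (Kif22, Nusap1 and Hmmr) 2 were at least 1.5-fold higher (6.16% of all such genes). Kif22, which pushes chromosome arms, gave 240.5 and 405.5 (0.75). Nusap1, a microtubule bundler, gave 181.4 and 286.0 (0.66) and at its second probe set 167.0 and 275.8 (0.72), the closest repeat among these genes. Kif11, the motor that separates the spindle poles, gave 43.4 and 126.9, at least 2.05-fold higher, but its second probe set gave 31.0 and 5.2, under the floor on both arrays. Kif20b gave 55.3 and 151.4, at least 2.44-fold higher, and Kif2c, a microtubule depolymerase, gave 22.7 and 112.6, at least 1.82-fold higher. Hmmr, a spindle protein and hyaluronan receptor, gave 103.2 and 113.2 (0.13) at the first probe set and 53.5 and 124.6, a log2 ratio of at least 1.01, at the second, so its value depends on the probe set. Kif4a had no probe set with a single symbol.

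Anaphase and mitotic exit. Ube2c, the ubiquitin-conjugating enzyme that works with the APC/C, gave 109.3 and 304.8 (2.79-fold, log2 ratio 1.48). Cdc20, the APC/C activator, gave 119.5 and 256.9 (1.10), and its second probe set gave 92.1 and 152.0 (0.72), while its other 3 probe sets were under the floor on both arrays. Pttg1, securin, which holds the cohesin protease in check, gave 157.0 and 190.8 (0.28), a difference smaller than the probe set SD. Its target Espl1, separase, was too dim to read (35.4 and 41.0). Ube2c and Cdc20 had larger ratios than securin, which they help to destroy; that difference was not tested.

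Cytokinesis. The genes of the central spindle and the cleavage furrow had a median of 0.80 over 5 measured members, and 3 were at least 1.5-fold higher (7.48% of all measured genes). Kif20a, the kinesin that carries the passenger complex to the central spindle, gave 96.0 and 248.9 (2.59-fold, 1.37). Prc1, which bundles the central spindle, gave 210.2 and 413.9 (0.98), and Ect2, the exchange factor that switches on RhoA at the furrow, gave 290.7 and 428.8 (0.56). Racgap1, a subunit of centralspindlin, gave 130.1 and 226.2 (0.80), whereas Kif23, its motor partner in the same complex, gave 122.4 and 112.5 (-0.12). The partners of this complex thus had ratios of opposite sign, and the difference was not tested. The second probe set of Kif23 was at background (6.4 and 6.8). Anln, the furrow scaffold anillin, shares its only probe set with the symbol Anlnl1 and was not counted; that probe set gave 282.6 and 586.4 (1.05).

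Chromosome structure. Mki67, the coat protein of mitotic chromosomes used as the standard proliferation marker, gave 52.3 and 189.4, at least 3.05-fold higher. The condensin subunits, which compact chromosomes, were higher by less: Smc4 gave 116.2 and 200.1 (0.78), Ncapd2 gave 79.7 and 135.5 (0.77) and Smc2 gave 140.8 and 163.7 (0.22). The second probe set of Smc4 was dim (46.7 and 65.1, 0.070), and the mean of its probe sets was 0.43, so Smc4 and Smc2, the paired core of condensin, are not told apart here. Top2a, which untangles sister chromosomes, gave 107.5 and 147.3 (0.45), and its second probe set was under the floor (48.3 and 21.2). Ncapg had no probe set with a single symbol.

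**Figure D3:**
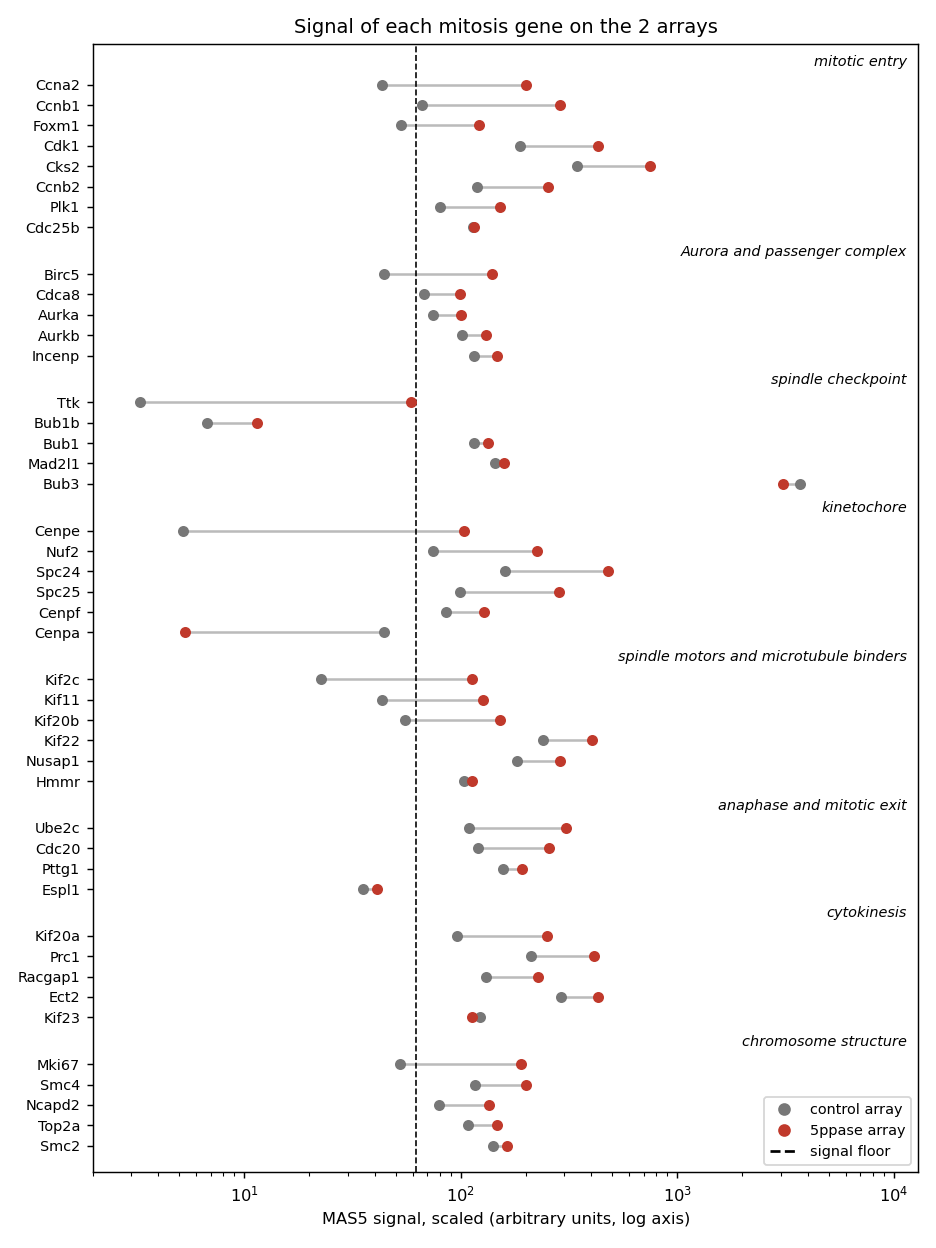
Signal on the control array (grey) and the 5ppase array (red) for the 44 mitosis genes with a probe set, on a log axis, grouped by role; the dashed line is the floor of 62.0. Red lies to the right of grey in 41 of the 44 genes, and the exceptions are Bub3, Kif23 and Cenpa, the last under the floor on both arrays.

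Further probe sets give the only repeat of these values. The 15 genes with more than 1 probe set had 20 further ones, of which 8 (in 7 genes) had a mean signal over the floor. Of these 8, 6 had a positive ratio (48.6% of all measured genes at their brightest probe set), and 5 had the sign of the first probe set. Those of Hmmr (1.01) and Incenp (-0.21) and the third of Mad2l1 (0.49) were above the floor on 1 array only, so the filter fixed their sign. Among those above the floor on both arrays, Ccnb1, Cdc20 and Nusap1 repeated with ratios over 0.7. The sign differed for Mad2l1, from 0.15 to -0.12, and for Bub3, from -0.27 to 0.091. The 12 others were too dim to read.

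**Figure D4:**
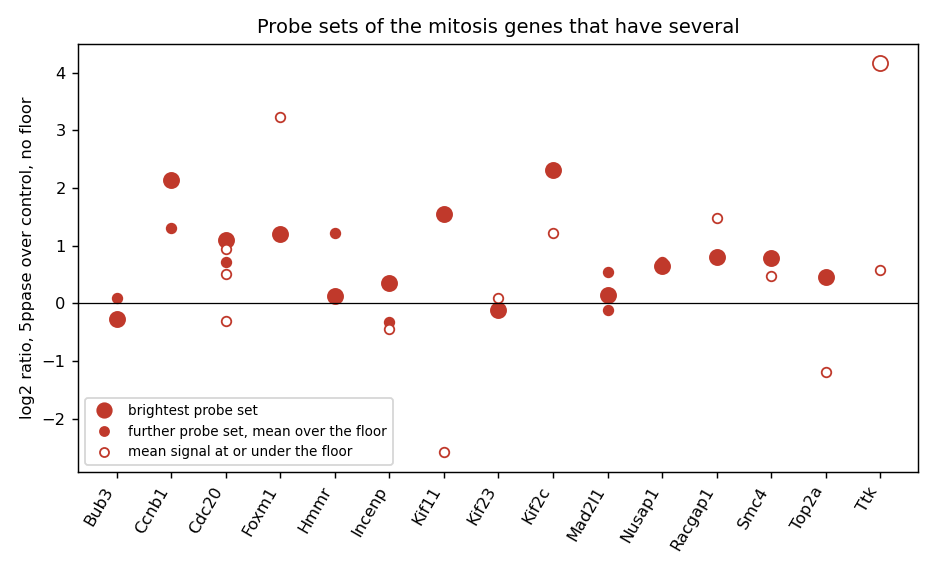
Log2 ratio without the floor (vertical axis) for each probe set of the 15 mitosis genes that have several; large points are the brightest probe set of a gene, small ones the others, and open points have a mean signal at or under the floor. Ccnb1, Cdc20 and Nusap1 have filled points that are all above 0, Incenp, Mad2l1 and Bub3 have filled points on both sides of 0, and the widest scatter (Ttk, Kif11, Foxm1) comes with open points.

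Mitotic genes outside the list of 50 also had mostly positive ratios, with a lower median. Of 77 listed genes 67 had a probe set and 45 were measured, of which 36 had a positive ratio (48.6% of all measured genes), 19 exceeded 1.5-fold upward (7.48%) and 2 downward (6.87%), with a median of 0.49; 11 of the 45 were at the floor in control. Of the 32 above the floor on both arrays 25 had a positive ratio (48.1% of all such genes) and 11 were at least 1.5-fold higher (6.16%). The largest ratios belonged to Cdca3, a trigger of entry through Wee1 degradation (121.3 and 364.8, log2 ratio 1.59), the condensin subunit Ncaph (61.0 and 161.3, at least 2.60-fold higher), the centriole protein Stil (67.1 and 157.0, 1.23) and the spindle protein Dlgap5 (76.6 and 168.6, 1.14). These 4 were the only ones at least 2-fold higher, and 0 were 2-fold lower. Where only genes bright on at least 1 array were kept, the median was 0.17 over 20 genes.

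The APC/C, the Cdk1 phosphorylation genes and cohesin had medians between -0.27 and -0.016, and few genes as bright as most of these were 1.5-fold apart anywhere on the arrays (4.55% higher and 4.8% lower), so a count of 0 sets such a list apart from nothing. Of the 18 measured APC/C subunits and regulators 0 were 1.5-fold apart, with a median of -0.018; Anapc5 gave 5487.1 and 5721.5 (0.060) and Anapc11 gave 3336.6 and 3267.2 (-0.030). Of 16 measured kinases and phosphatases that set the phosphorylation of Cdk1 and its substrates 0 were 1.5-fold apart, with a median of -0.016. For cohesin, which holds sister chromosomes together, 9 of 10 genes had a negative ratio (5267 of all 10255 measured genes), none by 1.5-fold. Their median was -0.27, beside a probe set SD of 0.30. Stag2 gave 2216.7 and 1822.3 (-0.28) and Rad21 gave 3856.0 and 3820.6 (-0.013). A tubulin list, for the spindle's building block, had 5 genes higher (48.6% of all measured genes) and 5 lower. Of these 10, 2 were at least 1.5-fold higher (7.48% of all measured genes) and 2 lower (6.87%). Its ends were Tubb3 (87.9 and 290.2, 1.72), also a marker of neurons, and Tubb4a (260.1 and 120.1, -1.11). Neither stayed 2-fold apart in the mean of its probe sets (0.86 for Tubb3 and -0.37 for Tubb4a), and the second probe set of Tubb4a gave -0.0061. Both promoter motifs were found in the windows of 1 of 16 APC/C genes, 0 of 9 cohesin genes and 0 of 13 phosphorylation genes, counts given without a test, and in 22 of 66 of the other mitotic genes.

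Most measured regulators outside the mitosis list differed little. Foxm1, counted with the mitosis genes, was at least 1.97-fold higher, from a control signal under the floor. In the DREAM, MuvB and E2F system 17 genes were measured, 8 with a positive (48.6% of all measured genes) and 9 with a negative ratio (median -0.031). Tfdp1 gave 2708.6 and 2650.6 (-0.031) and Mybl1 gave 1433.3 and 1642.6 (0.20). The only one 1.5-fold apart was Nfyb, a subunit of the CCAAT-binding factor (599.6 and 377.4, -0.67), named after its values were seen. Mybl2, the B-Myb activator, was not measured (51.6 and 67.4). Among CDK inhibitors, growth arrest genes and D cyclins, 10 of 17 were higher (48.6% of all measured genes), with a median of 0.11. The brightest of that list were cyclins of G1, Ccnd1 (19285.8 and 23566.5, 0.29) and Ccnd2 (9685.3 and 12468.0, 0.36), which promote rather than arrest the cycle. The inhibitor Cdkn1a gave 9097.6 and 8631.3 (-0.076) and Cdkn2c gave 877.5 and 546.7 (-0.68), both named after their values were seen.

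Genes of G1/S and DNA replication were mixed. Their 38 measured members split into 23 positive (48.6% of all measured genes) and 15 negative ratios (median 0.14). Beyond 2-fold, 2 were higher (2.14% of all measured genes) and 1 lower (1.9%). Pola2, a subunit of the polymerase that starts DNA synthesis, gave 70.9 and 323.4 (2.19) and the helicase factor Cdc45 gave 78.5 and 187.5 (1.26, but 0.36 in the mean of its probe sets). Thymidine kinase Tk1 gave 162.2 and 68.4 (-1.25), with 0.49 at its second brightest probe set and -0.25 in the mean of its probe sets. Whether mitosis and replication genes differ from each other was not tested.

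**Figure D5:**
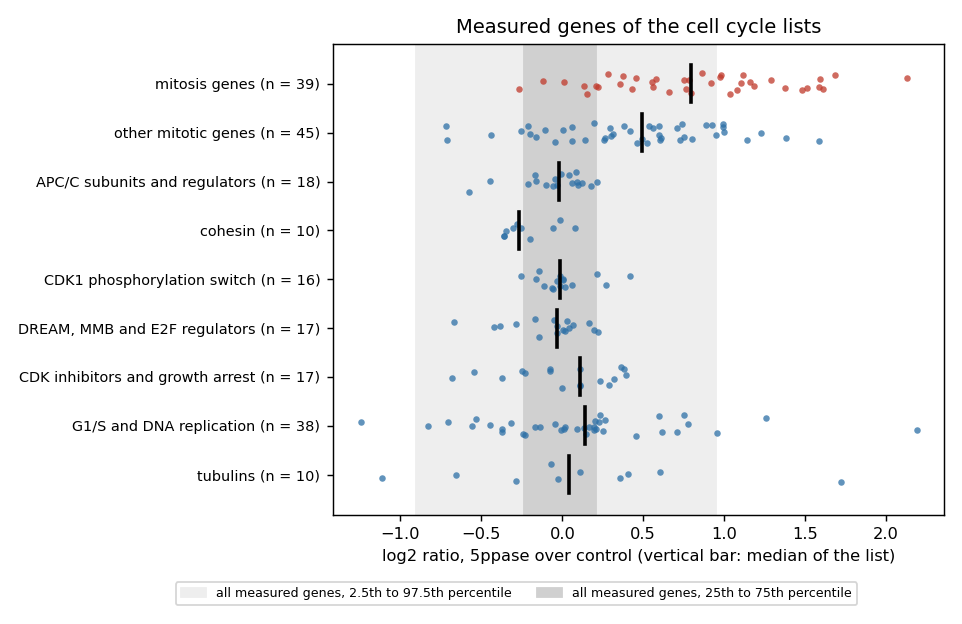
Log2 ratio of 5ppase over control for the measured genes of each list, 1 point per gene with vertical jitter, and the list's median as a black bar; the inner grey band runs between the quartiles of all 10255 measured genes (-0.24 to 0.21) and the outer one from -0.90 to 0.95, the percentiles named in its key. The mitosis genes (median 0.80) and the other mitotic genes (0.49) lie to the right of the inner band, the cohesin genes (-0.27) just left of it and the remaining lists within it.

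The labelled cell type was checked on its markers, and markers of cells that could divide in such a culture were read beside the mitosis genes. Of 13 astrocyte markers 10 were measured, with a summed signal over the listed probe sets of 55980.5 in control and 33948.1 in 5ppase; Gfap gave 17525.2 and 7407.7 and Gja1 7281.9 and 7655.8, while Aldh1l1 (62.9 and 49.8) and Slc1a2 (24.1 and 25.7) were not measured. Fibroblast and meningeal markers, 9 of 12 measured, summed to 138692 and 139759.4, with Col1a1 at 32792.1 and 32414.3 and Igfbp2 at 35178.7 and 37576.8; Dcn and Lum were under the floor on both arrays. Pericyte and smooth muscle markers, 6 of 10 measured, summed to 45055.7 and 58632.9, with Tagln at 21878.8 and 28753.6 and Acta2 at 14267.9 and 21069.6; Rgs5, Kcnj8 and Abcc9 stayed at or under the floor. Neural progenitor markers, 6 of 11 measured, summed to 47998.4 and 49053.5, with Vim at 37513.3 and 40821.0 and Sox2 at 4862.8 and 3377.2. Sums are led by the brightest probe sets of a list and are not cell numbers.

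Other lists held few measured markers. Neuron markers, 6 of 12 measured, summed to 6848.2 and 13329.6, with Stmn2 at 3766.0 and 11065.4 and Map2 at 1736.7 and 1210.1; the 6 others, Snap25 and Syt1 among them, never exceeded the floor. Of 13 microglial and macrophage markers 3 were measured, summing to 1354.2 and 2624.2 over the list, almost all of it Tmem119 (1078.1 and 2272.6); Csf1r gave 68.8 and 77.5, and Cx3cr1, Itgam, Trem2 and Tyrobp never exceeded the floor. Oligodendrocyte lineage markers, 4 of 11 measured, summed to 3860.9 and 2244.7, with Pdgfra at 1018.2 and 644.4, Cnp at 996.3 and 737.3, Cldn11 (1370.9 and 47.2) and Cspg4 (261.5 and 629.5) named after their values were seen, and Olig1, Olig2 and Sox10 under the floor. Endothelial markers, 1 of 10 measured (Flt1, 74.1 and 127.5), summed to 233.0 and 365.2. Ependymal markers, 4 of 8 measured, summed to 850.2 and 636.9, with Tekt1 at 421.9 and 344.5 and Rfx3 at 155.8 and 110.9. In the culture with the higher mitosis genes 8 of 10 measured astrocyte markers were lower and 2 higher. Of the 10, 7 were at least 1.5-fold lower (6.87% of all measured genes) and 4 at least 2-fold lower (1.9%), and 0 were 1.5-fold higher (7.48%). Among all measured genes 48.6% were higher. Only 3 microglial and macrophage markers were measured, all higher, but 1 of them, Tmem119, by at least 1.5-fold. Pericyte and neuron markers were each split, 3 higher and 3 lower (medians 0.12 and 0.036), and their larger sums came mostly from Tagln and Acta2 and from Stmn2. The part of these cell types in the result was not tested.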

How the data were processed

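The deposited values are linear single-colour intensity signals, 1 for each probe set, which the authors computed with MAS5, as the submitters' processing notes state; version and settings: not given in the sources used here. Biotin-labelled cRNA came from RNA extracted with RNeasy, per the labels' protocols. Both deposited columns had a 2% trimmed mean of 500.2, as global scaling gives. No sample column was unused (0).

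Of 31099 probe sets, 20832 carried 1 gene symbol in a platform annotation table, 436 several and 9831 none; the last 2 kinds were not named. Both arrays were brought to the same trimmed mean, signals under the pooled 40th percentile (62.0) were raised to it, and the log2 ratio was taken at each gene's probe set with the highest mean. A gene counted as measured where that mean exceeded the floor. No test was possible with a single array in each group, and the number of arrays limits the precision. A ratio with 1 array at or under the floor is a lower bound.

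The mitosis genes, lists, roles and markers were chosen with earlier results of these data known. Named were all mitosis genes, the genes of other lists at least 2-fold apart (up to 4 a list) or the 2 brightest, and the 2 brightest markers of each cell type; others are marked or given as limits. Synonyms were resolved through a RefSeq gene table (GRCr8). Alternatives were other scalings, floors, filters and probe set rules. Python 3.11.15, pandas 2.3.3 and statsmodels 0.14.6 were used, and the procedure was tested on simulated arrays.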

Additional observations from a re-analysis of the deposited data

How the results depend on the processing

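No paired analysis was possible because each group has 1 array, and no array could be left out. The median of the mitosis genes was positive under all 13 alternatives, from 0.58 (mean of the probe sets) to 1.11 (both arrays over the floor and brightness on 1 required, 16 genes). Of 304 values of medians and counts over these genes and the cell cycle lists, 271 stayed within a factor of 1.5 for counts or within the probe set SD for medians.

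Stricter signal limits left fewer genes. With the floor at the 60th percentile 8 mitosis genes remained, 7 with a positive ratio. Of these 8, 5 were at least 1.5-fold higher (326 of all 7973 genes then measured) and 3 at least 2-fold (81 of 7973). Cdk1, Spc24 and Nusap1 lay under that floor in control, so the filter fixed their direction. With brightness on 1 array required, 15 of 16 had a positive ratio and 14 were at least 1.5-fold higher (434 of all 8261 genes kept). Genes such as Ccnb1, Nuf2, Kif20a and Ube2c passed that limit only through the 5ppase array. These counts and the median of 1.11 therefore rest partly on the filter. Second brightest probe sets gave 7 genes, 5 with a positive ratio. Of these 7, 4 were at least 1.5-fold higher (270 of all 2910 genes then measured) and 2 at least 2-fold (72 of 2910). Those of Hmmr and Incenp were above the floor on 1 array only, so the filter fixed their direction. With a pseudocount of 6.4 in place of floor and filter, 1 gene (Cenpa) was at least 1.5-fold and 2-fold lower.

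Role medians that moved were those of anaphase and exit (0.69 with a 25th percentile floor or no filter, 0.67 with the pseudocount, 0.37 with the mean of the probe sets, 0.72 with second probe sets), chromosome structure (0.43 with the mean of the probe sets), kinetochore (1.21 with the 60th percentile floor, 1.13 without filter) and checkpoint (-0.27, Bub3 alone, with the 60th percentile floor or brightness required). The Aurora and passenger median turned to -0.21 with second probe sets, from Incenp alone.

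The other mitotic genes had medians of 0.14 (60th percentile floor), 0.17 (brightness required) and 0.014 (second probe sets, 5 genes). Their 2-fold higher genes numbered 14 under the 25th percentile floor, 16 with the pseudocount, 1 with brightness required and 0 with the 60th percentile floor or second probe sets; 2 and 3 were 2-fold lower with the 25th percentile floor and the pseudocount. The G1/S median was 0.46 with second probe sets (5 genes). Second probe sets turned the sign of Tk1 (0.49) and Flt1 (-0.48), the latter also the endothelial median. Over all genes 219 were 2-fold higher and 195 lower, against 566 and 468 under the 25th percentile floor, 81 and 72 under the 60th, 124 and 117 with brightness required, 181 and 146 with the mean of the probe sets, 72 and 59 with second probe sets, 1111 and 976 with the pseudocount, and 148 and 151 for genes above the floor on both arrays, which was chosen after seeing the data. The other alternatives, including all 4 scalings, gave all-gene medians from -0.042 to 0.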

Other observations

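Measured genes outside the mitosis list were read by the same promoter letters. Of 479 such genes whose windows hold both a CCAAT box and a cell cycle homology region, 12 (2.51%) were at least 2-fold higher in 5ppase, with a median ratio of 0.023; of 4572 whose windows hold neither, 81 (1.77%) were, with a median of -0.018. Among the members with both motifs 8 of 24 were. Genes with a CCAAT box alone (1.94% of 2830) or a homology region alone (1.81% of 664) gave shares close to that of genes with neither. At 1.5-fold the order turned, with 32 (6.68%) of the 479 genes higher beside 314 (6.87%) of the 4572. The other mitotic genes listed above were not taken out of these sets. None of these differences was tested, and genes are not replicates.

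Subunits of 1 complex can be set side by side. The 3 readable Ndc80 complex subunits had ratios of 1.59, 1.59 and 1.51, whereas in centralspindlin Racgap1 gave 0.80 and Kif23 -0.12. The ratio of Kif23 lay within the dim probe set SD of 0.47, and the partners were not tested against each other.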
